A study of Bos taurus with 6 samples.

Results

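The genes described here are 48 genes of fatty acid oxidation, fatty acid synthesis, and glycerolipid synthesis or storage, read in day-7 bovine blastocysts on the Affymetrix GeneChip Bovine Genome Array. They were found by the gene symbol in the platform annotation, and each was read from its probe set with the highest mean over the 6 arrays. Of the 48 genes, 43 had a probe set, among 9155 genes with 1 symbol on the array. They comprised 21 of 25 oxidation genes, 8 of 9 synthesis genes and 14 of 14 glycerolipid and storage genes. CPT1A, ETFDH, ACSL4, EHHADH and FADS1 had 0 probe sets under those symbols.

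All embryos came from Simmental heifers that had been synchronized, superovulated and inseminated, 18 in all. In the superovulated group (3 arrays) the embryos stayed in those animals until day 7. In the synchronized group (3 arrays) 9 of the heifers were flushed on day 2, and their 2-cell embryos were transferred by endoscope into recipients that received synchronization but no stimulation, from which blastocysts were recovered on day 7. Superovulation of the donor was therefore common to both groups, while transfer was confined to the synchronized group and cannot be told apart from the maternal environment. The labels give neither the number of embryos per array nor a statement that replicate arrays stem from different animals, so every p-value rests on a spread between arrays that could be technical.

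Fatty acids are activated to acyl-CoA, carried into mitochondria by the carnitine shuttle and shortened there by the repeating steps of beta-oxidation, which feed electrons to the respiratory chain. Cytosolic synthesis runs the other way, from citrate through acetyl-CoA to palmitate, which is then elongated and desaturated. Acyl chains are also esterified to glycerol by way of lysophosphatidic and phosphatidic acid, and triacylglycerol is kept in lipid droplets. The bovine oocyte and early embryo are known for abundant lipid droplets.

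Values are log2 signals as deposited, and a difference is the superovulated mean minus the synchronized mean, in log2 units. The median over all 24016 probe sets lay between 2.75 and 2.80 on every array, so a value of 4 was used as a working line above background. The number of probe sets above that line was 1457 to 1894 on the superovulated arrays and 973 to 1850 on the synchronized arrays. Probe sets with a mean above 4 were shifted upward as a body, with a median difference of 0.59, which was 0.10 after a second quantile normalization and 0.38 to 0.87 with an array left out. Of the 7 measured trophectoderm markers, KRT18 and DAB2 rose, and the sum of the 7 log2 signals was 26.1 to 26.5 on superovulated and 18.8 to 21.2 on synchronized arrays. The trophectoderm keratin gene KRT8 and the interferon tau gene IFNT2 lay at background in both groups, between 2.27 and 2.35. Adipocyte markers (5 of 6 measured) and blood markers (7 of 7) were at or below 4 on every array.

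In this set of genes, AGPAT5 was the only member that passed the test between the groups, and it was higher in blastocysts from superovulated heifers. It passed only on the brightest of its 5 probe sets, and in 3 of the 6 fits with an array left out. CPT2, which lay close behind, passed only a looser threshold. No other member passed either threshold on its brightest probe set, and 30 of the 43 lay at or below log2 4 on every array, among them most enzymes of the beta-oxidation spiral. The share at or below that line was 69.8% of the members and 80.8% of all genes.

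By limma with Benjamini-Hochberg adjustment over all probe sets, 1 of 43 members (2.33%) had an adjusted p below 0.05 with a higher value in the superovulated group, against 1.3% of all genes read the same way and 0.695% of all probe sets. None was lower at that threshold, nor at an unadjusted p below 0.05, where the background was 0.0218% and 2.16% of genes (0.0208% of probe sets at the adjusted threshold). At an adjusted p below 0.3 with at least a 2-fold difference, 2 members were higher (4.65%, background 3.15%) and 0 lower (background 0.131%). At an unadjusted p below 0.05, 5 members were higher (11.6%, background 7.86%). The arrays of the groups did not overlap in 7 members, all higher (16.3%, background 9.06%), and in 0 members that were lower (background 7.86%). The calls at the adjusted thresholds thus rest on 1 and 2 genes, at shares not far from the background. The median difference was -0.01 over the 43 members and -0.02 over all genes.

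**Figure D1:**
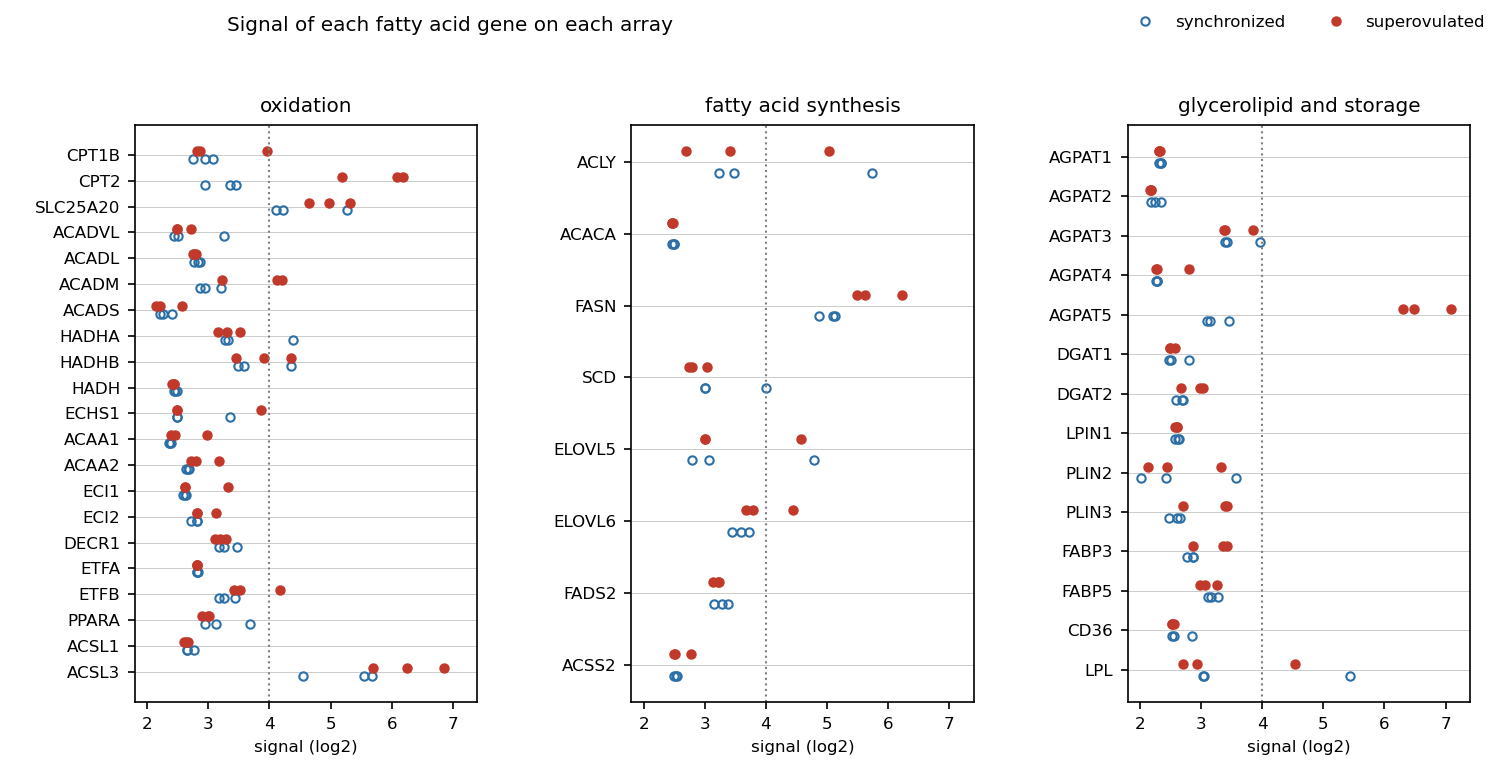
Log2 signal (horizontal axis) of the 43 measured genes on the 3 superovulated (filled red) and 3 synchronized (open blue) arrays, in 3 panels by role, with a dotted line at log2 4. AGPAT5 and CPT2 stand out with superovulated arrays at 5.19 or above and synchronized arrays at 3.46 or below.

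Of the oxidation genes, those of uptake into the mitochondrion are taken first. CPT2, the inner-membrane carnitine palmitoyltransferase that re-forms acyl-CoA in the matrix, read 6.09, 6.18 and 5.19 in the superovulated group (arrays 1 to 3, the order used throughout) and 2.95, 3.36 and 3.45 in the synchronized group. Every superovulated array lay well above every synchronized array, and the synchronized values were near background, so the size of the difference is uncertain. The difference was 2.57 (95% interval 1.75 to 3.38), with an adjusted p = 0.0575 in limma, which misses the 0.05 threshold. With 1 array left out in turn the adjusted p ranged from 0.047, without superovulated array 3, to 0.197. Under the other settings tried it ranged from 0.000154, after centring on bright probe sets, to 0.273, with the replicate number as a block. Centring moved the median difference of all probe sets to -0.72, so its p-values do not compare with the others. The next lowest was 0.00518, among bright probe sets alone.

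SLC25A20, the carrier that exchanges acylcarnitine for carnitine across the same membrane, read 4.65, 5.31 and 4.98 in the superovulated group and 4.22, 5.27 and 4.11 in the synchronized group. The groups overlapped because synchronized array 2 was as high as the superovulated arrays. Its difference was 0.45 (interval -0.52 to 1.41, adjusted p = 0.636 in limma), fell to 0.02 after a second quantile normalization and turned to -0.25 after centring on bright probe sets. Its second probe set lay at background, between 2.39 and 2.44. CPT1B, the muscle type of the outer-membrane transferase, reached 3.96 on superovulated array 1 and lay between 2.75 and 3.07 on the other arrays.

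ACSL3, an acyl-CoA synthetase of the endoplasmic reticulum and lipid droplets, read 5.70, 6.86 and 6.25 in the superovulated group and 4.55, 5.68 and 5.54 in the synchronized group. The groups were separated by a margin far smaller than the spread within each. The difference was 1.01 (interval -0.12 to 2.14, adjusted p = 0.636 in limma). A second ACSL3 probe set differed by more, with 5.04, 5.63 and 4.77 against 3.02, 3.42 and 3.68, a difference of 1.77 and an adjusted p = 0.112 in limma, past the looser threshold. The third lay at background, between 3.03 and 3.17. ACSL1, the related synthetase of the mitochondrial outer membrane and the endoplasmic reticulum, read 2.60 to 2.77 on all arrays.

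Among the enzymes of the spiral itself, chosen after their values were seen, ACADM came closest to a difference. This medium-chain acyl-CoA dehydrogenase read 3.23, 4.13 and 4.21 against 2.95, 3.21 and 2.87, a difference of 0.85 (interval 0.08 to 1.61) with an unadjusted p = 0.0362 and an adjusted p = 0.636 in limma. The groups did not overlap, but by only the narrow gap between superovulated array 1 and synchronized array 2. HADHB, the thiolase subunit of the trifunctional protein, read 3.46, 3.91 and 4.35 against 3.48, 4.36 and 3.59, with full overlap. HADHA, its partner subunit, passed 4 on synchronized array 1 alone (4.39) and lay between 3.16 and 3.52 elsewhere. ETFB, a subunit of the flavoprotein that takes electrons from the dehydrogenases, passed 4 on superovulated array 2 alone (4.17) and lay between 3.17 and 3.51 elsewhere.

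The other 14 oxidation genes, CPT1B and ACSL1 included, were at or below 4 on every array, with differences between -0.29 and 0.29. ACAA2, the mitochondrial thiolase, was the member of these 14 whose groups did not overlap, at 2.72 to 3.17 against 2.64 to 2.68. The hydratase gene ECHS1 was above 3 only on superovulated array 3 (3.86) and synchronized array 2 (3.35). The same 2 arrays gave the highest values in their groups for the very long-chain dehydrogenase gene ACADVL, at 2.72 and 3.26, all others being 2.44 to 2.50. The isomerase gene ECI1 (3.32) was highest on superovulated array 1, with 2.59 to 2.63 elsewhere, and the peroxisomal thiolase gene ACAA1 (2.98) on superovulated array 3, with 2.35 to 2.45 elsewhere.

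PPARA, the nuclear receptor that activates oxidation genes in the liver, read 2.89 to 3.01 in the superovulated group and 2.95 to 3.68 in the synchronized group. Its second probe set differed by -0.03. ACADL, ACADS, HADH, ECI2, DECR1 and ETFA completed the 14 and lay between 2.15 and 3.47. For ETFA all 6 arrays fell between 2.81 and 2.83, a flat reading that gives no information on its transcript. The median difference over the 21 oxidation genes was 0.13, and 0.0017 without superovulated array 1.

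In fatty acid synthesis, FASN, the multifunctional synthase that builds palmitate, read 5.63, 6.22 and 5.49 in the superovulated group and 5.13, 4.87 and 5.10 in the synchronized group. It was above 4 on all 6 arrays, and every superovulated array lay above every synchronized one. The difference of 0.75 (interval 0.19 to 1.30) had an unadjusted p = 0.0179 and an adjusted p = 0.471 in limma, so it was not called. After centring each array on its bright probe sets, whose median difference was 0.59 as deposited, the FASN difference was 0.05. After a second quantile normalization, which left those probe sets at 0.10, it was -0.06.

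ACLY, which splits citrate to supply cytosolic acetyl-CoA, varied more within the groups than between them, at 2.70, 3.41 and 5.03 against 3.23, 5.74 and 3.48. Its difference of -0.44 had an interval from -2.88 to 2.00. ELOVL5, an elongase of polyunsaturated fatty acids, read 3.01, 3 and 4.57 against 2.79, 4.79 and 3.07. In both genes superovulated array 3 and synchronized array 2 carried the high values and the other 4 arrays were near background. SCD, the stearoyl-CoA desaturase, followed with 4 on synchronized array 2, 3.04 on superovulated array 3 and 2.75 to 3.01 elsewhere.

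ELOVL6, the elongase of palmitate, read 4.45, 3.67 and 3.79 against 3.73, 3.60 and 3.44, with overlapping groups and a difference of 0.38 (interval -0.21 to 0.97). The carboxylase gene ACACA, which makes malonyl-CoA, lay between 2.46 and 2.49 on all arrays, the acetyl-CoA synthetase gene ACSS2 between 2.50 and 2.78, and the desaturase gene FADS2 between 3.14 and 3.38. No signal above background was thus read for ACACA, on either of its probe sets. The median difference over the 8 synthesis genes was -0.02.

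In glycerolipid synthesis, AGPAT5, an acyltransferase that makes phosphatidic acid from lysophosphatidic acid, rose in the superovulated group. Its signal was 6.30, 7.09 and 6.48 in that group and 3.09, 3.46 and 3.15 in the synchronized group. The synchronized arrays were near background and the superovulated arrays far above it, so for AGPAT5 as for CPT2 the size of the difference is uncertain. The difference was 3.39 (95% interval 2.78 to 4, adjusted p = 0.019 in limma, higher in 3 of 3 arrays). It kept its direction when any array was left out, at 3.16 to 3.55, which groups without overlap fix in advance. Leaving out synchronized array 1 or 3 raised the adjusted p above 0.05 (to 0.0646 and 0.086), as did leaving out superovulated array 3 (0.0654), and the lowest of the 6 was 0.0386. Under the other settings tried the adjusted p in limma ran from 1.36e-09, after centring on bright probe sets, to 0.196, without superovulated array 3 and synchronized array 2. Centring moved the median difference of all probe sets to -0.72, and its lowest adjusted p was 1.04e-81. For AGPAT5 a second quantile normalization gave 0.0327 and an intensity trend 0.0464.

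The rise rested on 1 of 5 probe sets of AGPAT5. That probe set had the highest mean of the 5 through its superovulated arrays. On the synchronized arrays it averaged 3.23, below the 3.33 of the second. The rule of the highest mean thus chose it through the group in which it was high. The second by mean read 3.53, 4.50 and 3.75 against 3.52, 3.49 and 2.98, with superovulated array 1 and synchronized array 1 almost level, a difference of 0.60 with an adjusted p = 0.636 in limma. The other 3 lay between 2.64 and 3.06 on every array and differed by -0.02 to 0.07. With the mean of all 5 in place of the brightest, the difference was 0.81 (adjusted p = 0.054 in limma). In embryos read whole, fewer cells of a type and less RNA per cell cannot be told apart. Of all genes, 9.06% were higher in the superovulated group without overlap. In the oocyte, cumulus and granulosa, adipocyte and blood marker lists 0 markers were. Some markers of the other lists separated the groups in the same direction as AGPAT5 and CPT2. They were KRT18 and DAB2 of the trophectoderm list (2 of 7 measured), KLF4 and POU5F1 of the inner cell mass list (2 of 3) and C3 of the oviduct and uterus list (1 of 6). Of these KRT18, DAB2 and C3 rose, the last by 2.56 (adjusted p = 0.0373 in limma), while KLF4 differed by 1.32 (adjusted p = 0.15) and POU5F1 by 0.81 (adjusted p = 0.0886) without passing. The summed log2 signal of the inner cell mass list was 10.6 to 11.4 on superovulated and 8.4 to 9.2 on synchronized arrays, with SOX2 at background in both groups. The part of these cell types in the values of AGPAT5 and CPT2 was not tested.

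**Figure D2:**
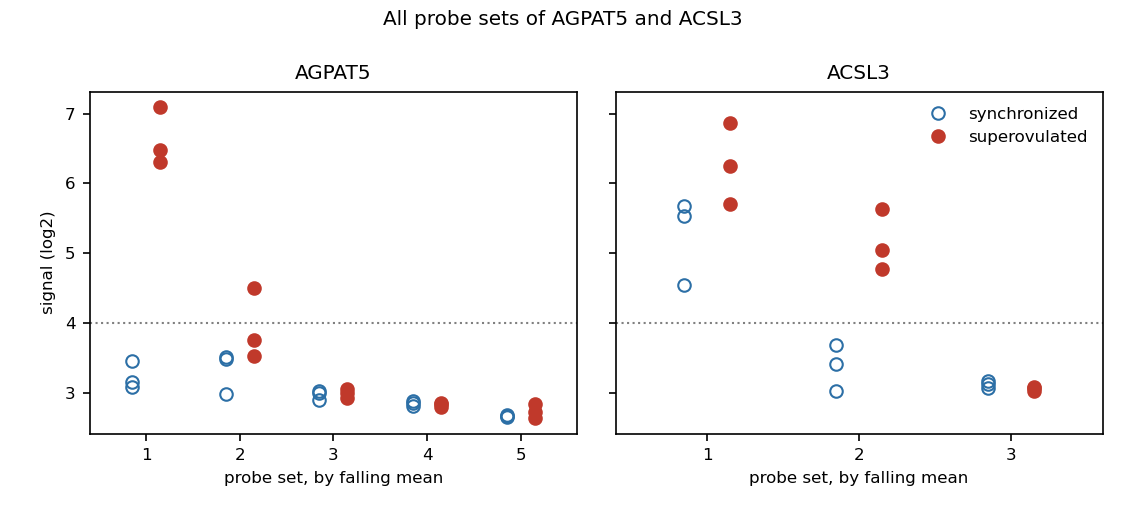
Log2 signal (vertical axis) of the 5 probe sets of AGPAT5 and the 3 of ACSL3, ordered by falling mean, on the superovulated (filled red) and synchronized (open blue) arrays, with a dotted line at log2 4. For AGPAT5 the brightest probe set differs between the groups by 3.39 and the second by 0.60, whereas for ACSL3 the second (1.77) differs by more than the first (1.01).

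No other acyltransferase of the family gave a signal above log2 4. AGPAT1, AGPAT2 and AGPAT4 lay between 2.17 and 2.81, and AGPAT3 between 3.38 and 3.97 on its brightest probe set. The diacylglycerol acyltransferase genes DGAT1 and DGAT2, which close triacylglycerol synthesis, read 2.48 to 2.80 and 2.59 to 3.03. LPIN1, a phosphatidic acid phosphatase, read 2.57 to 2.64.

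Of the lipid droplet coat genes, PLIN3 read 3.43, 3.39 and 2.71 against 2.61, 2.48 and 2.65, without overlap but at or below 4 throughout. Its difference of 0.60 (interval 0.04 to 1.15) had an unadjusted p = 0.0396 and an adjusted p = 0.636 in limma. PLIN2, the droplet coat protein of most tissues, read 2.13, 2.44 and 3.33 against 2.02, 3.58 and 2.42. It was highest on superovulated array 3 and synchronized array 2, and its difference was -0.04 (interval -1.41 to 1.33).

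Among the genes of uptake and intracellular binding, LPL, the lipoprotein lipase, read 2.94, 2.70 and 4.53 against 3.04, 5.44 and 3.05. It too was above 4 only on superovulated array 3 and synchronized array 2, with a difference of -0.45 (interval -2.73 to 1.82). The binding protein gene FABP3 read 2.87, 3.36 and 3.43 against 2.87, 2.87 and 2.77, and FABP5 lay between 2.99 and 3.27. CD36, a fatty acid translocase of the plasma membrane, read 2.52 to 2.86. The median difference over the 14 glycerolipid and storage genes was -0.03, and 0.15 without synchronized array 2.

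**Figure D3:**
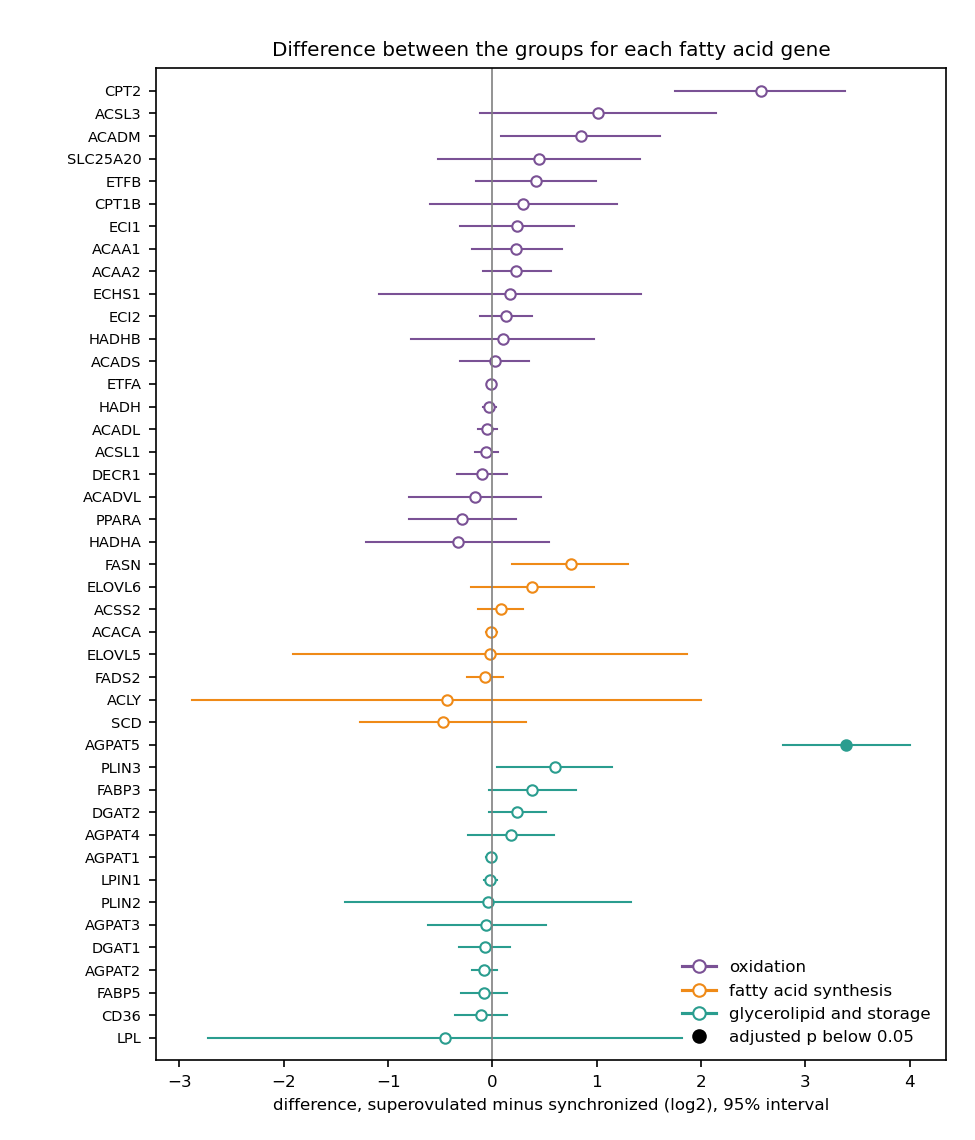
Difference of each of the 43 genes (superovulated minus synchronized, log2, horizontal axis) with its 95% interval, grouped by role and coloured as in the key. The filled point, AGPAT5 at 3.39, is the one with an adjusted p below 0.05, and the widest intervals belong to ACLY, LPL, ELOVL5, PLIN2 and ECHS1.

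Few members lay above log2 4 on at least 3 arrays, 5 in all (11.6%, against 10.6% of all genes). SLC25A20, ACSL3 and FASN did so on all 6 arrays. CPT2 and AGPAT5 did so on the superovulated arrays alone, so their place among the 5 follows from the difference between the groups.

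The 2 arrays with high ACLY, ELOVL5 and LPL were the highest of their groups for further members too, a pattern noticed after the values were seen. In 7 members superovulated array 3 and synchronized array 2 each led their group by at least 0.3: ACLY, ELOVL5, LPL, PLIN2, HADHB, ECHS1 and AGPAT3. That is 16.3% of the members, against 7.42% of all genes. With a mean above log2 4 required, it was 0 of 5 members and 28.2% of genes. None of the 7 had separated groups, and the first 4 with ECHS1 had the widest intervals of the set. CPT2 and AGPAT5 did not follow the pattern.

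The means of the oocyte, the cumulus and granulosa, and the oviduct and uterus marker lists were highest on the same arrays. The mean of the 7 measured oocyte genes was 3.15, 3.21 and 3.89 in the superovulated group and 2.93, 4.63 and 3.31 in the synchronized group, with 3 of the 7 above 4 on some array. The sum of their log2 signals was 22.0 to 27.3 and 20.5 to 32.4. The 9 cumulus and granulosa genes averaged 2.98, 2.96 and 3.50 against 3.23, 3.94 and 3.34, with sums of 26.6 to 31.5 and 29.1 to 35.5 and 4 of the 9 above 4 on some array. The 6 oviduct and uterus genes averaged 3.18, 3.53 and 3.96 against 3.19, 3.85 and 3.54, with sums of 19.1 to 23.7 and 19.1 to 23.1 and 2 of the 6 above 4 on some array. Superovulated array 3 and synchronized array 2 each led their group by at least 0.3 in KPNA7, ZP2 and ZP4 of the 7 oocyte genes, TNFAIP6 and PTX3 of the 9 cumulus and granulosa genes, and MSX1 of the 6 oviduct and uterus genes. Others went another way. In the oviduct and uterus list the high means on these arrays came from MSX1 (8.48 and 10.38). C3 of that list was highest on superovulated array 2 (5.95) and synchronized array 3 (3.38). OVGP1, PAX8, MUC1 and PGR stayed at or below 3.01, and all but PGR were lowest on superovulated array 3. FOXL2 passed 4 on synchronized array 1 alone (4.18) and was lowest on superovulated array 3 (2.61), HAS2 passed it on superovulated array 2 alone (4.05) and was lowest on synchronized array 2 (3.44), and CYP19A1 was lowest on superovulated array 3 (3.05). The zona pellucida gene ZP3 and the granulosa genes FSHR and AMH stayed at or below 2.75. The part of these cells in the values of ACLY, ELOVL5, LPL and PLIN2 was not tested. Adipocyte markers, at or below 4 on every array, averaged 2.70 and 2.71 on these 2 arrays. The part of adipose tissue in the values was not tested either.

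**Figure D4:**
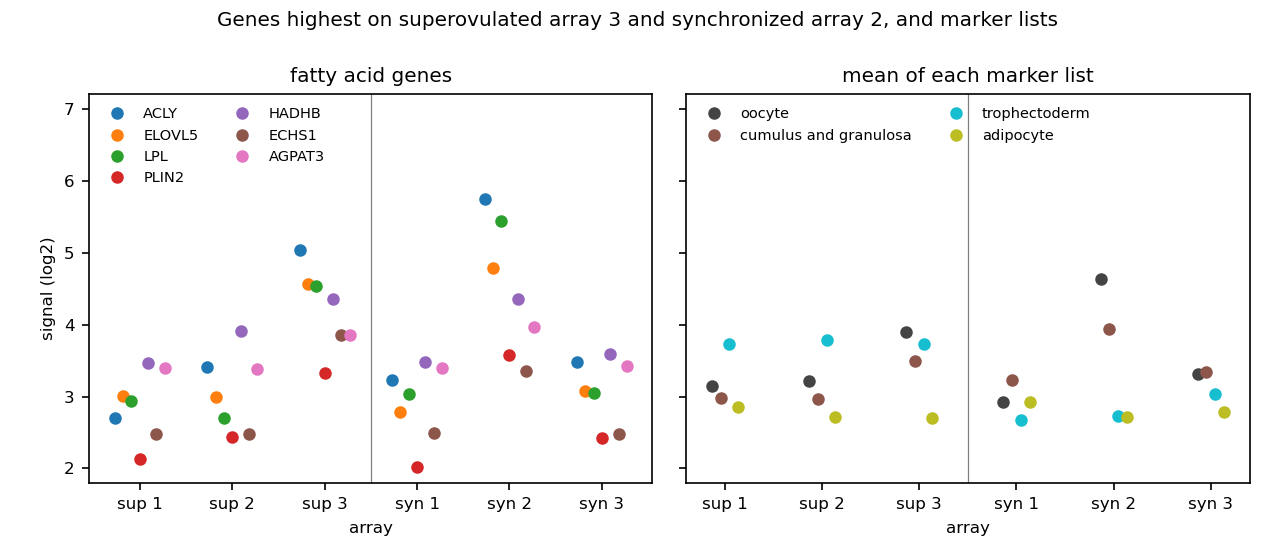
Left, log2 signal on each array of the 7 genes for which superovulated array 3 and synchronized array 2 led their group by at least 0.3. Right, mean log2 signal of 4 marker lists on the same arrays (sup, superovulated, and syn, synchronized). The mean of the oocyte list is highest on the same 2 arrays, by which the 7 genes were picked. The trophectoderm list lies at 3.73 to 3.78 in the superovulated and 2.68 to 3.04 in the synchronized group. That gap comes mainly from KRT18 (difference 3.89) and DAB2 (2.21), the other measured genes of the list differing by -0.07 to 0.38.

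Other genes of fatty acid transport, oxidation, synthesis and storage were read from a second list of 90 symbols, of which 68 had a probe set. By limma 0 of the 68 were called higher and 0 lower, against 1.3% and 0.0218% of all genes. At an unadjusted p below 0.05 there were 6 higher (8.82%, background 7.86%) and 3 lower (4.41%, background 2.16%). Their median difference was -0.04, and 59 (86.8%, against 80.8% of all genes) lay at or below 4 on every array. SREBF1, the transcription factor gene that drives fatty acid synthesis genes, was the nearest to a call. It read 5.60, 5.68 and 5.50 against 3.38, 4.16 and 4.17, a difference of 1.69 (interval 1.07 to 2.31, adjusted p = 0.0805 in limma), on 1 of its 4 probe sets, the others lying between 2.24 and 2.58. Without synchronized array 1 it passed, at an adjusted p = 0.0308 in limma, the lowest with an array left out (highest 0.294). Over the other settings the adjusted p ran from 0.00864, among bright probe sets alone, to 0.428, after a second quantile normalization.

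HSD17B10, a mitochondrial dehydrogenase that also acts on branched acyl-CoA, read 5.46, 6.06 and 5.22 against 4.19, 3.74 and 4.73, without overlap (difference 1.36, adjusted p = 0.355 in limma). The peroxisomal oxidase gene ACOX3 read 4.30, 4.61 and 4.95 against 3.69, 3.17 and 4.17, a difference of 0.94 that did not pass. ELOVL4, the elongase of very long chains, read 3.48, 2.47 and 5.62 against 3.91, 7.25 and 4.13. Like ACLY and ELOVL5 it was highest on superovulated array 3 and synchronized array 2, and its difference of -1.24 had an interval from -4.53 to 2.05.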

How the data were processed

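Total RNA of blastocysts was labelled with biotin in the second in vitro transcription, per the labels' protocols. The authors deposited log2 expression values, with 1 value for each probe set on each array. They were made with GCRMA, per the submitters' processing notes, whose version and joint use over the 6 arrays are not given in the sources used here. GCRMA compresses values near background.

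The 112 control probe sets were left out of the 24128, and 24016 were tested with limma 3.58.1 in R 4.3.3 (group as the only term, two-sided, Benjamini-Hochberg over all probe sets). Symbols came from the platform annotation, and all 43 measured members matched the RefSeq gene table by gene identifier. The members and lists were chosen with earlier results of these data known. The rule for giving values on every array took members that passed either threshold or exceeded log2 4 on at least 3 arrays (CPT2, SLC25A20, ACSL3, FASN and AGPAT5). All other members with single values were chosen after their values were seen. In other genes, calls and up to 4 further genes above log2 4 on at least 3 arrays were named. Simulated data with independent normal noise were drawn for all 24016 probe sets. Differences were placed in 200 of them, all with a mean above log2 4. Among these the comparison found 7% of simulated differences of size 1 (log2) and 21.3% of those of size 2. The rates depend on the number changed and do not describe members with a lower mean or deviations shared between arrays. The number of arrays, 3 per group, limits the precision. Alternatives were another normalization, centring, a filter, a variance trend, all probe sets of a gene, a block and leaving arrays out. No sequences were used here.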

Additional observations from a re-analysis of the deposited data

How the results depend on the processing

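The 1 member called higher, AGPAT5, was also the 1 called after a second quantile normalization and with an intensity trend. There were 2 among bright probe sets alone and 2 after centring each array on them (AGPAT5 and CPT2 both times), and 0 to 1 with an array left out, where it was CPT2 in place of AGPAT5 without superovulated array 3. With the mean of a gene's probe sets CPT2 passed (adjusted p = 0.0488 in limma) and AGPAT5 did not (0.054). CPT2 has 1 probe set, so its own values and its difference of 2.57 were unchanged there. No member was called lower under any setting run. With superovulated array 3 and synchronized array 2 both left out, chosen after seeing the data, 0 members were called by limma (5 at an unadjusted p below 0.05), beside 0 higher and 1 lower of all probe sets. The counts over all probe sets, 167 higher and 5 lower, were 413 and 28 among bright probe sets alone, 49 and 1 with a trend, 27 and 1 after quantile normalization, and 26 to 96 and 0 to 41 with an array left out. Centring gave 211 higher and 318 lower (39.9% higher in place of 97.1%), since it moved the median of all probe sets to -0.72. It put the medians of oxidation, synthesis and glycerolipid genes at -0.56, -0.71 and -0.72 and called 2 other pathway genes lower. Among bright probe sets the medians were 1.01, 0.75 and 3.39, over the 3, 1 and 1 members left, which include CPT2 and AGPAT5 through their superovulated arrays alone, and 2 other pathway genes were called higher. With an array left out those medians ran from 0.0017 to 0.21, -0.03 to 0.21 and -0.05 to 0.15, and other pathway genes called higher from 0 to 1.

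Differences changed sign for SLC25A20 (-0.25) and PLIN3 (-0.10) after centring, and for FASN (-0.06) and ELOVL5 (0.01) after quantile normalization. They did so too for ELOVL5 (0.08) and PLIN2 (0.06) without both arrays, and with single arrays left out for ACLY (-1.09 to 0.36), ELOVL5 (-0.55 to 0.60), PLIN2 (-0.39 to 0.41) and LPL (-1.02 to 0.34). For the last 4 genes, and for the counts after quantile normalization or with fewer arrays, the cause was not tested beyond the arrays left out.

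With the replicate number as a block, 0 members and 0 higher and 0 lower probe sets were called by limma, with 4 members and 1382 probe sets at an unadjusted p below 0.05. Deviations of same-numbered arrays correlated at 0.601, -0.543 and -0.438 over 1406 bright probe sets. Deviations from a group mean cancel within the group, so these correlations depend on each other and cannot decide whether arrays were paired. Superovulated array 3 deviated most like synchronized array 2 (0.736).

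Depth is set here by signal over background. The 30 members at or below log2 4, a working line, on every array had medians of 2.65 to 2.75 per array. That is close to a background near 2.75, although single values reached 4. Small differences among them are poorly measured, since GCRMA compresses values near background. Their intervals had a median half-width of 0.26, and those of members with an array above the line 0.87.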
